A study of Mus musculus with 36 samples.

Results

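The comparison described here is between spleen dendritic cells (DCs) that lacked both double-stranded RNA sensors, MDA5 and TLR3 (PRR-/-), and wild-type (WT) DCs, each taken 4 h after injection of poly IC. The samples were those whose titles name a PRR-/- or a WT DC sample at 4 h, and they were 13 of the 36 arrays of the series. There were 8 WT and 5 PRR-/- arrays. The study's methods list C57BL/6 mice among those used, and they state no strain background for the PRR-/- mice. Per the study's methods, the cells came from bone marrow mixed chimeras, in which WT and deficient DCs developed in the same host, and the host received 50 µg of poly IC by the intraperitoneal route. DCs were sorted as CD11c-high cells without CD3, DX5 or B220, and the WT and deficient cells were separated by CD45.2. The PRR-/- marrow came from MDA5xTLR3-/- mice. In such chimeras both kinds of DC meet the cytokines of 1 host, and the comparison asked what direct sensing by the DC itself added. Unstimulated DCs (9 arrays) served as the background, and their labels give neither genotype nor injection. The study states that its negative controls were pooled from WT and deficient DCs of chimeras given PBS and from DCs of PRR-/- mice given poly IC, so every comparison with unstimulated DCs here may rest on such a mix. DCs lacking the type I interferon receptor (IFNAR-/-) taken at 4 h (5 arrays) were set beside it. The labels do not say which WT and deficient samples shared a host, or that replicates came from separate mice. One figure legend of the study describes a sample as a pool of mice. The p-values then measure only the spread between these samples.

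Poly IC is a synthetic double-stranded RNA. MDA5, encoded by Ifih1, recognises long double-stranded RNA in the cytosol and signals through MAVS, and TLR3 recognises it in endosomes and signals through TRIF. Both routes activate the kinases TBK1 and IKK-epsilon and the transcription factors IRF3, IRF7 and NF-κB, which switch on the genes of interferon-β and the interferon-α family. The secreted interferons (IFNs) then act on any cell that bears IFNAR and induce the interferon-stimulated genes (ISGs).

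Values are bead signals on a normalised log2 scale, on which a probe not above background sat at the floor of 6.49 and 1 unit is a 2-fold difference. Arrays 1 and 2 of the PRR-/- group differed by a spread (median absolute deviation of their log2 difference) of 0.0553, below the 0.0899 to 0.251 of the other 37 pairs of arrays in the comparison, and were counted as 1 sample (1-2), as were the near-repeat arrays 1 and 2 of the unstimulated and IFNAR-/- groups. This left 4 PRR-/-, 8 WT, 8 unstimulated and 4 IFNAR-/- samples. On the 13 arrays, 10428 to 11392 probes (40.6% to 44.3%) were above background. The samples also resembled each other across groups in 3 sets, read from the values and not from the labels. Set A held WT 1 and 2 and PRR-/- 1-2, set B held WT 3 to 6 and PRR-/- 3 and 4, and set C held WT 7 and 8 and PRR-/- 5. Values within each set are given where they matter. Genes of conventional DCs (7 tested, among them those of MHC class II) summed to a signal of 128000 to 147000 in WT and 129000 to 150000 in PRR-/- samples. Most of this sum is Cd74, H2-Ab1 and H2-Aa, at mean levels of 15.64, 15.66 and 14.5, so it says little of the DC subsets. Of 9 CD8+ DC genes tested, 0 had a positive difference (median -0.17) and 0 were called. Plasmacytoid DC genes (6 tested) summed to 3050 to 4830 in WT and 4660 to 5980 in PRR-/- samples, and 0 were called. Only 2 of these 6 had a positive difference (median -0.06). The largest, 2.07, was that of Klra17, so the higher sum does not stand for the list as a whole. The Flt3 probe was not above background on any of the 13 arrays.

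The deleted genes were examined first. Ifih1 was detected in all 8 WT samples, with a lowest value of 7.08, a median of 9.30 and a highest of 9.79, and it was not well above background on any of the 5 PRR-/- arrays. The WT level was at least 5.23-fold higher (adjusted p = 0.000146, limma), and WT 1 and 2 were the lowest WT samples. Tlr3 lay between 6.86 and 7.48 in WT samples (median 7.25), and it sat at the floor in PRR-/- 1-2, 3 and 4 and at 6.59 in PRR-/- 5. The groups did not overlap, and the log2 difference was -0.73 (95% interval -0.94 to -0.51, adjusted p = 9.41e-05), which is 1.66-fold and below the 2-fold limit used here to call a gene different. Whether either probe lies inside the deleted part of its gene was not tested.

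Of 9606 genes tested, 29 (0.302%) differed by at least 2-fold at an adjusted p under 0.05 between PRR-/- and WT DCs. The 17 lower genes (0.177%) were led by the type I IFN genes, and the 12 higher genes (0.125%) included genes of heme handling, complement and tissue macrophages. For comparison, 461 genes (4.8%) were higher and 230 (2.39%) were lower in WT DCs than in unstimulated DCs, and 467 (4.86%) were higher and 232 (2.42%) lower in PRR-/- DCs than in the same unstimulated DCs. In IFNAR-/- DCs, 365 genes (3.8%) were lower and 79 (0.822%) higher than in the same WT DCs. The median difference between PRR-/- and WT DCs over all genes tested was 0 on the log2 scale.

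**Figure D1:**
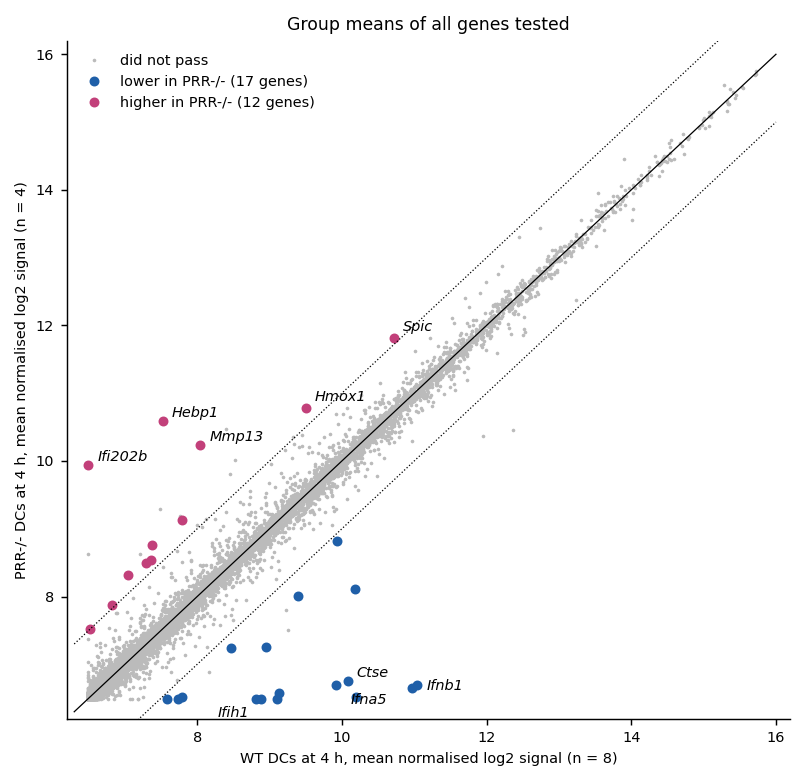
Mean normalised log2 signal of each of the 9606 genes in WT DCs (x axis, n = 8) and PRR-/- DCs (y axis, n = 4) at 4 h; the solid line marks equality and the dotted lines a 2-fold difference. Most genes lie on the line, with 17 coloured genes below it, several of them at the floor of the PRR-/- axis, and 12 above it.

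The genes of interferon-β and of the interferon-α subtypes formed the main group that fell. Of 18 type I IFN genes listed, 12 passed the detection filter, and 10 of these 12 were lower in PRR-/- DCs and none was higher. The filter asked for detection on at least 3 arrays of the series. For Ifnab, Ifna4 and Ifna9 the 8 WT arrays alone met it. These 3 genes were above background on no unstimulated array and on no PRR-/- or IFNAR-/- array at 4 h. The counts, the median and the lack of overlap in this list therefore follow in part from the filter. The median difference over the 12 was -2.44, against 0 over all genes, and was -1.46, -2.93 and -2.23 in sets A, B and C. In each of the 10 genes the highest PRR-/- sample lay below the lowest WT sample, as was so for 0.802% of all genes in either direction. The other two were Ifne (difference -0.01, 95% interval -0.06 to 0.04) and Ifnz (-0.04, interval -0.15 to 0.07), which lay at or near the floor in both groups. The interferon-α genes are close copies of each other, so a probe may read more than its named subtype.

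Ifnb1, the gene of interferon-β, had a lowest value of 10.37, a median of 10.82 and a highest of 11.93 in WT DCs. In PRR-/- DCs it was 6.52 in sample 1-2, 6.99 in sample 3, 6.80 in sample 4 and 6.49 in sample 5. The groups were far apart, with WT 4 and 6 the highest, and PRR-/- samples at or just above the level of unstimulated DCs, in which Ifnb1 was not above background on any array. The gene was 20.3-fold lower in PRR-/- DCs (log2 difference -4.34, 95% interval -4.96 to -3.72, adjusted p = 3.30e-11, limma). Against unstimulated DCs, the rise was 4.55 in WT and 0.21 in PRR-/- DCs, and only the first passed the test.

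Ifna5 was the interferon-α gene with the largest difference. Its WT values ran from 10.46 to 11.93 with a median of 10.74, and its PRR-/- values were 6.49, 6.63, 6.98 and 6.49 in samples 1-2, 3, 4 and 5. It was 20.0-fold lower (log2 difference -4.32, interval -4.80 to -3.85, adjusted p = 1.84e-13). Ifna2 ran from 9.83 to 11.23 in WT DCs (median 9.92) and was at the floor in every PRR-/- sample except sample 4, at 6.58. The difference of the means was 12.8-fold (adjusted p = 4.00e-13), with Ifna2 above background on 1 of 5 PRR-/- arrays, so that its size is set mostly by the floor. Ifna15, from 9.14 to 10.96 in WT DCs, was 6.61, 6.81, 6.84 and 6.49 in the 4 PRR-/- samples, a 9.41-fold difference (adjusted p = 1.50e-11). For these genes the residual PRR-/- signal, where there was any, was highest in samples 3 and 4 of set B, the set that also held the highest WT samples, 4 and 6.

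The remaining interferon-α genes had lower WT levels. Ifnab was not well above background on any PRR-/- array and was at least 6.13-fold higher in WT DCs (adjusted p = 2.26e-09). Ifna4, an early-response subtype that depends on IRF3, was likewise not well above background on any PRR-/- array, and its WT values of 7.54 to 9.99 (median 8.88) were at least 4.98-fold higher (adjusted p = 1.96e-05). Ifna9 was at least 2.13-fold higher in WT DCs (adjusted p = 8.51e-05). These bounds rest on the background of the arrays and do not show how far the PRR-/- level fell. Ifna14 was 5.88-fold lower in PRR-/- DCs, and Ifna1 2.41-fold lower. Ifna6 differed from the others in that its probe was above background in unstimulated DCs too, at 6.80 to 7.12. It ran from 8.14 to 9.81 in WT DCs and was 7.18, 7.17, 7.37 and 7.32 in the PRR-/- samples, a 3.23-fold difference (adjusted p = 2.23e-06) that its second probe also showed, at -1.03 on the log2 scale.

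**Figure D2:**
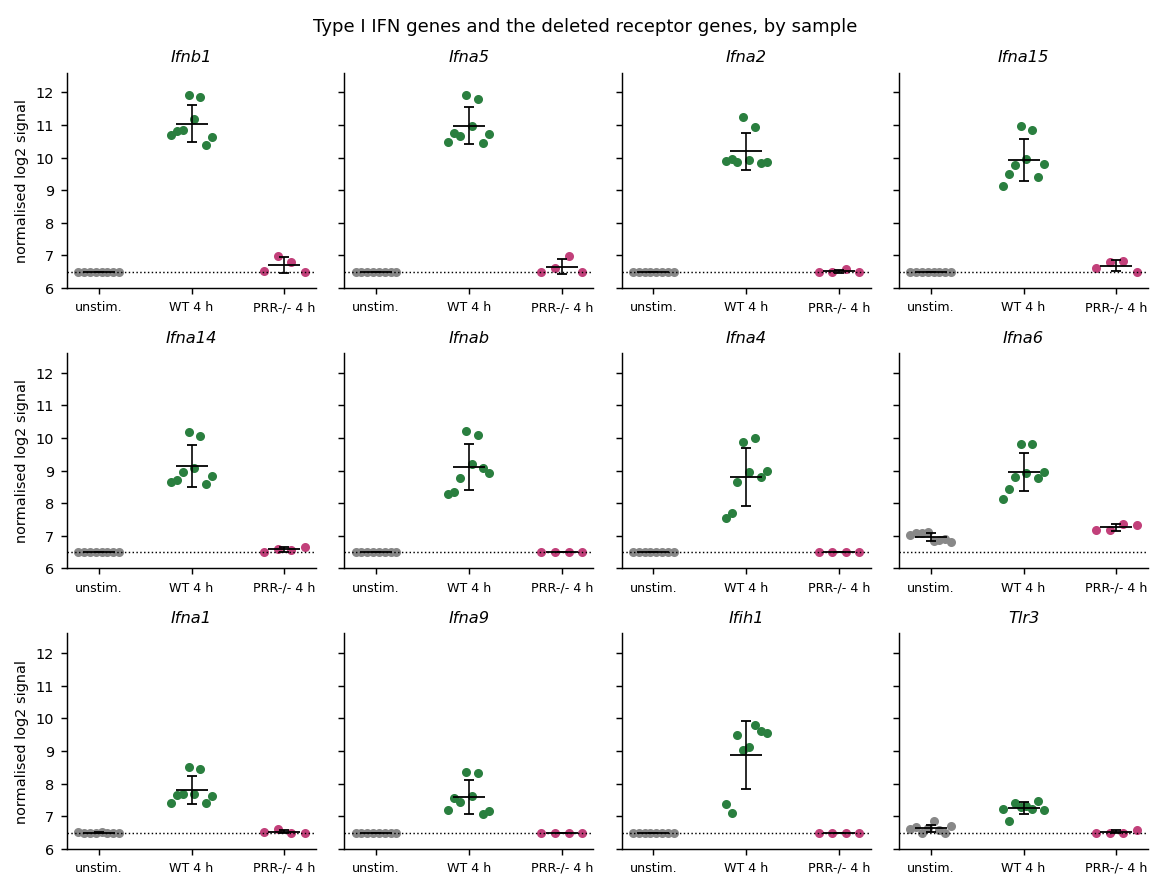
Normalised log2 signal (y axis) of the 10 type I IFN genes that fell and of the deleted genes Ifih1 and Tlr3, in unstimulated, WT 4 h and PRR-/- 4 h samples; each point is a sample, bars are the mean and SD, and the dotted line is the background floor. In every panel the 4 PRR-/- points lie below all 8 WT points.

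None of the 12 type I IFN genes passed the test between PRR-/- and unstimulated DCs (limma, 0 of 12 at an unadjusted p under 0.05). In WT DCs 10 of the 12 were higher than in the same unstimulated DCs. The shared spread and the floor limit this test, so a small rise in PRR-/- DCs is not excluded. Ifna6 was 7.17 to 7.37 in PRR-/- and 6.80 to 7.12 in unstimulated samples. Ifna15 was above background on 4 and Ifnb1 on 3 of 5 PRR-/- arrays, and neither on any unstimulated array. Ifnab, Ifna4 and Ifna9 were above background on no array of either group. The fitted differences from unstimulated DCs were 0.02 for Ifna2 and 0.30 for Ifna6 in PRR-/- DCs, and 3.70 and 1.99 in WT DCs. Values of IFNAR-/- DCs, whose sensor genes were not deleted, are set beside these although both comparisons use the same WT samples. In them the sensors were also low, with Ifih1 at a mean of 6.99 and Tlr3 at 6.53, which were 1.89 and 0.71 lower on the log2 scale than in WT DCs. The IFNAR-/- minus WT difference was -4.04 for Ifnb1, -4.37 for Ifna5 and -1.83 for Ifna6, and 10 of the 12 genes were lower there too. Of 5 genes of type II and III IFN and their receptors that were tested, none passed between PRR-/- and WT DCs in limma. None had an unadjusted p under 0.05 and none passed the methods' t-test. Ifngr1 was at 0.22 (interval -0.28 to 0.72) and Il10rb at -0.03 (interval -0.60 to 0.55). Ifngr2 had the largest difference, -0.41, with 0.02 and 0.03 for its other probes. For 3 of the 5 genes the 95% interval lay within 2-fold, and limma called 0.302% of all genes.

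Promoter sequences of 3 of the fallen IFN genes are shown with that of Isg15, an antiviral gene that did not differ, because proteins of the IRF family act on both kinds of gene through related letters. Each is a stretch of 150 bases, from 180 to 31 bases before the annotated start, in the sense of the gene, taken from RefSeq on GRCm38.p6. Capitals mark AANNGAAA, the core letters bound by IRF proteins, on either strand, with overlapping matches merged. Ifnb1 lies at chr4:88522825-88522974 on the minus strand, Ifna4 at chr4:88841636-88841785 and Ifna5 at chr4:88835345-88835494 on the plus strand, and Isg15 at chr4:156200849-156200998 on the minus strand.
Ifnb1: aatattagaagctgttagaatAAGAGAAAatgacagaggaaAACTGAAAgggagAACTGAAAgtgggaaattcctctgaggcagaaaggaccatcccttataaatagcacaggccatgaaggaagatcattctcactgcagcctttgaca
Ifna4: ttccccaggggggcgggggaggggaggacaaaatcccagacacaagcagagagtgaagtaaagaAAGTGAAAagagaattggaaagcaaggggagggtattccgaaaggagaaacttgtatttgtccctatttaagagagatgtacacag
Ifna5: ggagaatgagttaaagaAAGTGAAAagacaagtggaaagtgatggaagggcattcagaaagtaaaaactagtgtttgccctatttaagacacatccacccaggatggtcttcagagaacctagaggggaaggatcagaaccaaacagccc
Isg15: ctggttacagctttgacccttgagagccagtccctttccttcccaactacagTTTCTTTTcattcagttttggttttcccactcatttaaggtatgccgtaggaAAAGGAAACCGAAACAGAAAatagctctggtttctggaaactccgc
In the 300-base windows from 250 bases before to 50 after the start, at least 1 match was present in all 10 fallen IFN genes and in 32 of the 40 antiviral ISGs with a window, against 23.9% of 32851 windows of all genes. At least 2 matches were present in 8 of the 10 IFN genes, in 24 of the 40 ISGs and in 5.34% of all windows. A match is a description of the letters and was not tested for binding.

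In contrast to the IFN genes, the antiviral ISGs did not pass the test between the genotypes. Of 60 ISGs listed 49 were tested, and none of the 49 was called by limma, 2 had an unadjusted p under 0.05, and none passed the methods' t-test. Over all genes, 0.302% were called by limma and 4.5% had an unadjusted limma p under 0.05, against 4.08% of the ISGs for the latter. The limma counts of the 49 ISGs are therefore near the shares over all genes. The median difference of the 49 ISGs was 0.03, against 0 over all genes, and was -0.04, 0.09 and -0.08 in sets A, B and C. For 39 of the 49 the 95% interval of the difference lay within 2-fold in either direction (79.6%), a smaller share than the 97.1% of all genes. In the separate comparisons with unstimulated DCs, 41 of the 49 were higher in WT and 42 of the 49 in PRR-/- DCs, and in the comparison with IFNAR-/- DCs, which shares the WT samples, 41 of the 49 were lower in IFNAR-/- DCs.

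Isg15, a ubiquitin-like protein attached to viral and host proteins, ran from 13.87 to 14.74 in WT DCs (median 14.15). It was 14.44, 14.48, 13.75 and 13.92 in PRR-/- samples 1-2, 3, 4 and 5. The groups overlapped, with a difference of -0.07 (interval -0.82 to 0.68), against a rise over unstimulated DCs of 4.74 in WT and 4.67 in PRR-/- DCs. Mx1, a GTPase that blocks virus replication, differed by 0.08 (interval -0.56 to 0.71), Rsad2 (viperin) by 0.02 (interval -0.79 to 0.84) and Ifitm3, which hinders virus entry, by 0.06 (interval -0.37 to 0.49). Ifit3 had a wider interval, -1.06 to 1.13, so a 2-fold difference in it could not be told from none.

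Trim30a, a member of the TRIM family named here because its value stood apart from the other ISGs, had the largest difference on that list, -1.91, at an adjusted p of 0.0726. Its neighbour in the family Trim30b, chosen in the same way, was at -1.42 with an adjusted p of 0.0586. Neither passed here. Each passed in 5 of 15 other settings, among them the block on the 3 sets and limma with trend and robust estimation, and without WT 2 or without PRR-/- 5. The Trim30 genes are close copies, so their probes may not be separate.

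**Figure D3:**
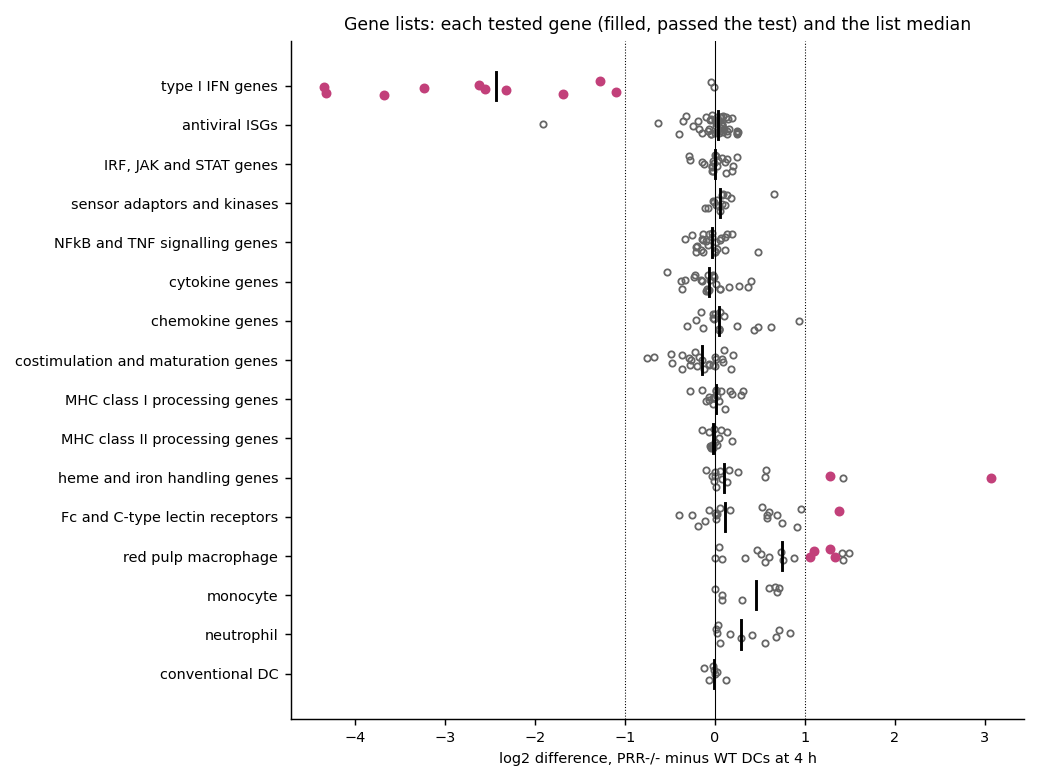
Log2 difference between PRR-/- and WT DCs at 4 h (x axis) for every tested gene of 16 gene lists (rows); filled points passed the test, open points did not, and the bar is the list median. The type I IFN row lies apart to the left with a median of -2.44, the antiviral ISG row is centred on 0.03, and the red pulp macrophage row is centred on 0.745.

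The signalling chain between the sensors and the IFN genes was measured next. Among 15 sensors of RNA and DNA, only Ifih1 was called, and Tlr3 fell at an adjusted p alone, as did 0.25% of all genes. Ddx58, which encodes the sister sensor RIG-I, differed by 0.07 (interval -0.52 to 0.65) and rose over unstimulated DCs by 3.29 in WT and 3.35 in PRR-/- DCs. Dhx58, which encodes LGP2, a regulator of MDA5, differed by 0.04 (interval -0.42 to 0.50). Among 15 adaptors and kinases none passed (2 at an unadjusted p under 0.05, 0 by the methods' t-test), with Tbk1 at 0.01 (interval -0.23 to 0.26). Among 21 IRF, JAK and STAT genes none passed either (0 at an unadjusted p under 0.05, 0 by the methods' t-test). With 0.302% of all genes called by limma, 0 called in lists of 15 and 21 genes is near the share over all genes. Irf7, the factor that amplifies interferon-α expression and is itself an ISG, ran from 12.42 to 13.40 in WT DCs and was 12.27, 13.47, 13.23 and 12.83 in PRR-/- samples 1-2, 3, 4 and 5. The groups overlapped, with a difference of -0.02 (interval -0.74 to 0.71), while in the comparison that shares the WT samples it was lower by 4.82 in IFNAR-/- DCs.

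Genes of DC maturation and inflammation did not pass the test between the genotypes. By limma, 0 of 25 costimulation and maturation genes, 0 of 25 cytokine genes, 0 of 18 chemokine genes and 0 of 27 genes of NF-κB and TNF signalling were called, and the methods' t-test called none of them. Over all genes these tests called 0.302% and 11 of 9606, so 0 in lists of this size does not show that nothing differed. At an unadjusted limma p under 0.05 there were 4, 3, 3 and 0 genes of these lists. They made up 16.0%, 12.0%, 16.7% and 0% of each list, against 4.5% of all genes. Smaller differences in the first 3 lists are therefore not excluded. The list medians were -0.15, -0.07, 0.04 and -0.04. Of the 25 costimulation and maturation genes only 8 had a positive difference, and the lowest was -0.75. Their medians in sets A, B and C were -0.18, -0.03 and -0.30. In the separate comparisons with unstimulated DCs, 12 of these 25 were higher in WT and 8 in PRR-/- DCs. The same counts were 9 and 8 for cytokine, 5 and 5 for chemokine, and 7 and 6 for NF-κB and TNF genes. Cd40, the receptor for T cell help, lay at 13.69 to 14.13 in WT and at 13.75, 14.02, 13.76 and 13.56 in PRR-/- samples, so the groups overlapped (difference -0.15, interval -0.47 to 0.17). It rose over unstimulated DCs by 2.45 in WT and 2.30 in PRR-/- DCs.

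Cd86, a ligand of CD28, differed by 0.02 (interval -0.48 to 0.51) and Ccr7, which guides DCs to T cell zones, by -0.37 (interval -1.01 to 0.27). Cxcl10, a chemokine for activated T cells, differed by -0.02 (interval -0.79 to 0.76) and had risen by 6.53 in WT and 6.51 in PRR-/- DCs. Il15, which supports memory T cells and NK cells, differed by -0.10 (interval -0.49 to 0.29). Il27, an IL-12 family cytokine made by activated DCs, had the largest cytokine difference toward the WT side. It ran from 10.15 to 11.07 in WT DCs and was 10.01, 10.31, 10.13 and 9.75 in the PRR-/- samples, and the difference of -0.54 (interval -1.10 to 0.03) did not pass. For Il6 the difference was -0.22 (interval -0.83 to 0.39), and for Tnf -0.14 (interval -0.56 to 0.27). For MHC class I processing, 0 of 19 genes were called (0 at an unadjusted p under 0.05), with Tap1, the peptide transporter, at -0.01 (interval -0.27 to 0.25). For MHC class II processing the counts were 0 of 16 and 0, with Cd74, the invariant chain, at -0.02 (interval -0.14 to 0.10). The methods' t-test called no gene of either MHC list. Limma called 0.302% of all genes, so 0 called in lists of this size is near the share over all genes.

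Outside the IFN and sensor genes, 6 genes were lower in PRR-/- DCs. Ctse encodes cathepsin E, an aspartic protease of endosomes. Its WT values were uniform, from 9.71 to 10.29 (median 10.08), and its PRR-/- values were 6.67, 7.05, 6.71 and 6.60. The groups lay far apart, at a 10.0-fold difference (interval -4.28 to -2.36 on the log2 scale, adjusted p = 8.51e-05). Among unstimulated samples it ran from 6.49 to 9.88, and in the comparison that shares the WT samples it was lower by 3.47 in IFNAR-/- DCs. No other tested cathepsin was called (10 tested).

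Chil1, a chitinase-like secreted protein, ran from 9.47 to 11.53 in WT DCs (median 10.07) and was 7.52, 8.50, 8.99 and 7.43 in the PRR-/- samples. All PRR-/- samples were below all WT samples (4.23-fold lower, adjusted p = 0.000756), yet PRR-/- DCs still exceeded unstimulated DCs by 1.58. Sema4f, a transmembrane semaphorin, was 8.63, 9.02, 9.02 and 8.62 in PRR-/- and 9.53 to 10.52 in WT samples (2.16-fold lower, adjusted p = 0.00146). Its rise over unstimulated DCs was 1.86 in WT and 0.75 in PRR-/- DCs, of which the first passed the test.

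Rmdn3 and Lrrc57 were lower to a degree that differed between PRR-/- samples. Rmdn3, a protein of contacts between mitochondria and endoplasmic reticulum, was 6.98 in PRR-/- 1-2 and 7.16 in PRR-/- 5, but 8.71 in PRR-/- 3 and 9.19 in PRR-/- 4, against 9.07 to 9.59 in WT DCs. Lrrc57 was at the floor in PRR-/- 1-2 and 5, at 7.49 in PRR-/- 3 and at 8.49 in PRR-/- 4, against 8.28 to 8.83 in WT DCs. In both genes sample 4 lay within the WT range and sample 3 between. The differences were -1.38 (adjusted p = 0.00226) and -1.23 (adjusted p = 0.00205), and within sets A, B and C they were -2.50, -0.38 and -2.25 for Rmdn3 and -2.27, -0.36 and -1.92 for Lrrc57. A second Rmdn3 probe differed by -0.20. Kcnip3, a calcium-binding protein of the calsenilin family, was not well above background on any PRR-/- array and lay at 7.40 to 7.96 in WT DCs, at least 2.37-fold higher (adjusted p = 0.0452). It kept the call in 1 of the 12 fits that left out a sample.

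The 12 higher genes were less uniform than the IFN genes. Ifi202b, a DNA-binding member of the Ifi200 family that restrains the DNA sensor Aim2, was not above background on any WT array. It was 11.22 in PRR-/- 1-2, 10.45 in PRR-/- 3 and 11.62 in PRR-/- 5, and at the floor in PRR-/- 4. It was at least 11.0-fold higher in PRR-/- DCs by the group means (adjusted p = 8.51e-05, limma), a mean that joins 3 high samples and 1 at the floor. That p rests on a spread shared over all groups, with an SD of 2.35 in PRR-/- and 0 in WT and IFNAR-/- DCs. The methods' t-test on PRR-/- and WT samples gave an adjusted p of 0.229. A second Ifi202b probe differed by 2.52. Of the other Ifi200 genes tested, Aim2 was at 0.73, Ifi204 at -0.40 and Ifi205 at -0.63, and none of these passed. Tmem87a, a membrane protein of the Golgi, was 8.89, 8.45, 6.93 and 9.02 in PRR-/- 1-2, 3, 4 and 5, with sample 4 inside the WT range of 6.49 to 7.31 (difference 1.27, adjusted p = 0.0150).

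Hebp1, a heme-binding protein, was 10.76, 9.90, 11.16 and 10.56 in the PRR-/- samples and 6.89 to 8.26 in WT samples (median 7.45). The groups did not overlap and the difference was 8.40-fold (adjusted p = 0.0177). Unstimulated DCs spanned 7.04 to 11.92, and the interval, from a fit that shares 1 spread over all groups, was wide, at 1.70 to 4.43. Gab2, a scaffold protein of growth factor and Fc receptor signalling, was 7.53, 7.80, 7.33 and 7.42 in PRR-/- samples and above background in only 1 of 8 WT samples. Its difference of 1.00 (adjusted p = 0.0408) sat at the 2-fold limit, and a second probe differed by -0.13. Klra17, an inhibitory lectin receptor, was just outside the limits. It was 10.80, 10.32, 10.24 and 10.53 in PRR-/- samples and 8.01 to 8.75 in WT samples, without overlap, and its difference of 2.07 had an adjusted p of 0.0726. It passed in 8 of 15 other settings, among them the fit on these 2 groups only, the methods' t-test and the block on the 3 sets.

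**Figure D4:**
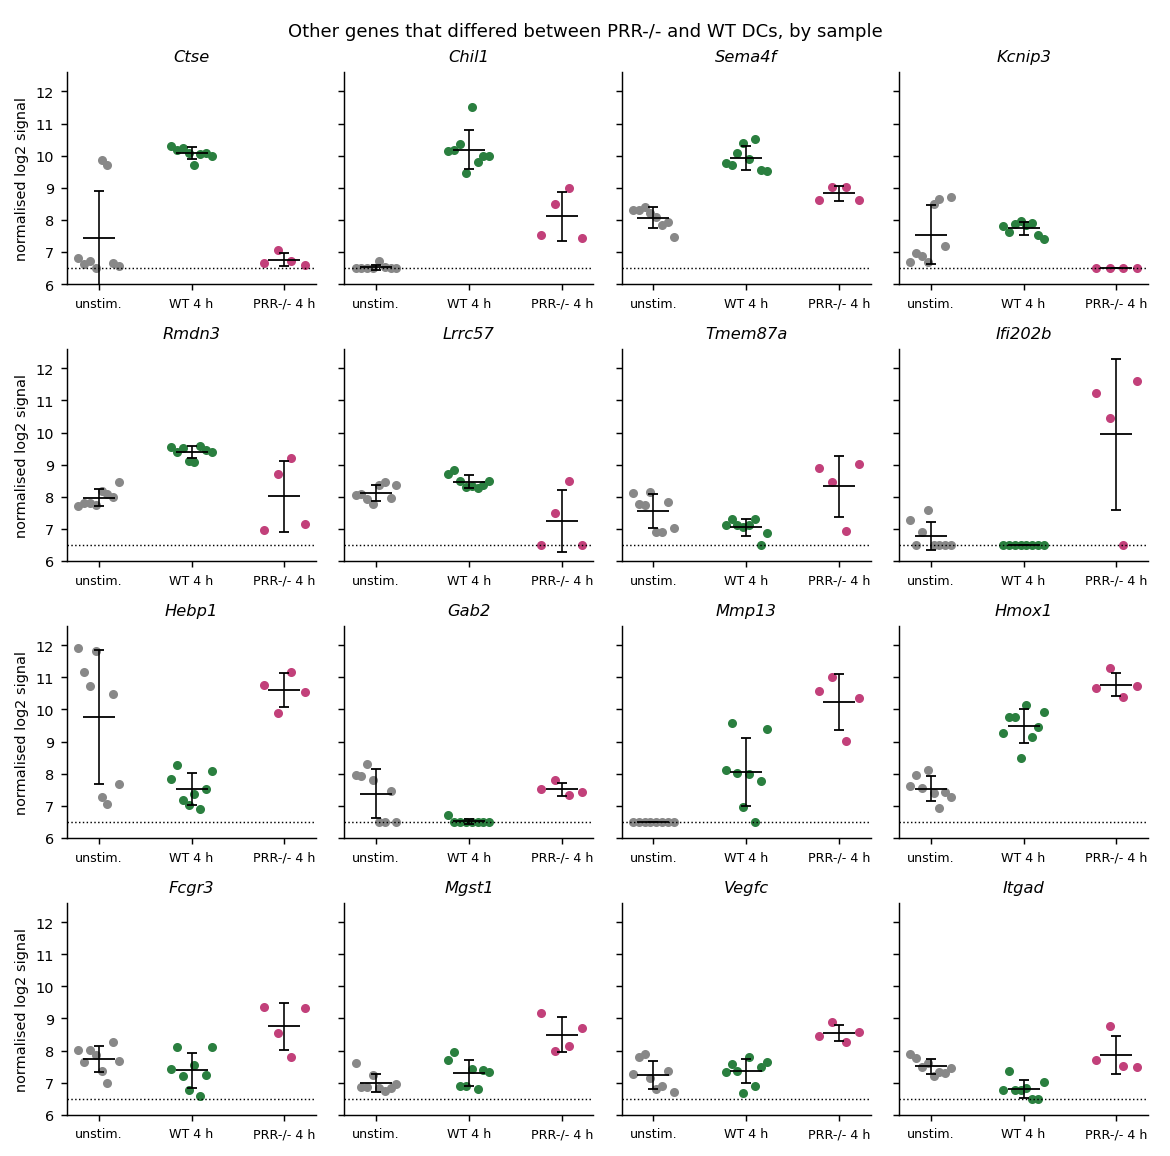
Normalised log2 signal (y axis) of 16 other genes that differed, in unstimulated, WT 4 h and PRR-/- 4 h samples; each point is a sample, bars are the mean and SD, and the dotted line is the background floor. PRR-/- sample 4, the third point of its group, lies with the WT samples for Rmdn3, Lrrc57, Tmem87a and Ifi202b, and apart from them for Ctse, Kcnip3 and Hebp1.

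The next higher genes were of matrix, heme and myeloid function. Mmp13, a collagenase, was 10.57, 11.02, 9.01 and 10.35 in PRR-/- samples and ran from the floor to 9.59 in WT samples (median 8.01). Sample 4 overlapped the WT range, and the difference was 4.57-fold (adjusted p = 0.00205), with 0.68 and 0.09 for 2 dimmer probes. Hmox1, the heme oxygenase that degrades heme, was 10.68, 11.29, 10.40 and 10.74 in PRR-/- samples, above all WT samples (8.49 to 10.15), at a difference of 1.28 (adjusted p = 0.0124). Both groups exceeded unstimulated DCs in it, by 3.24 in PRR-/- and 1.96 in WT DCs. Vegfc, a lymphatic growth factor, was 8.45, 8.88, 8.28 and 8.58 against 6.69 to 7.81 in WT samples, without overlap (2.28-fold, adjusted p = 0.000756). Mgst1, a membrane glutathione transferase, was 2.30-fold higher (adjusted p = 0.00151) with a second probe at 0.21. Fcgr3, a low-affinity IgG receptor, was 9.36, 8.54, 7.80 and 9.32 against 6.59 to 8.11 in WT samples, so that only sample 4 overlapped (difference 1.38, adjusted p = 0.0115).

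Some of the higher genes are markers of red pulp macrophages, the iron-recycling macrophages of the spleen. Of 18 tested markers, 4 were higher in PRR-/- DCs (0.125% of all genes were called higher) and 7 at an adjusted p alone (0.333% of all genes), and none was lower. The methods' t-test called 0 of the 18. The 4 called genes lost the call in the fit on PRR-/- and WT samples only and without PRR-/- 3. The median difference was 0.745 over the list and 0.537, 0.957 and 0.598 in sets A, B and C, against 0 over all genes. Spic, the transcription factor of this lineage, was 12.20, 11.78, 11.28 and 12.01 in PRR-/- samples and 9.89 to 11.53 in WT samples (difference 1.10, adjusted p = 0.0165), with sample 4 overlapping. C1qc, a chain of complement C1q, was 9.26, 9.69, 8.62 and 8.96 against 6.88 to 8.87 in WT samples (difference 1.34, adjusted p = 0.0162). Hmox1 and the integrin gene Itgad (difference 1.06, adjusted p = 0.00151, with -0.06 and 0.85 for its other probes) were the others called. Mertk (0.88), C1qa (0.76) and Siglec1 (0.46) passed at an adjusted p alone, and Slc40a1 (ferroportin), named after its value was seen, was at 1.43 with an adjusted p of 0.338. The defining markers Cd163 and Cd5l were not above background on any of the 13 arrays.

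The summed signal of the macrophage list was 7630 to 15000 in WT and 14100 to 22200 in PRR-/- samples, and that of the monocyte list 11200 to 27900 and 19900 to 40600. The neutrophil list summed to 1490 to 2800 in WT and 2840 to 3850 in PRR-/- samples, and only this one of the 3 sums did not overlap, by a narrow gap. In IFNAR-/- samples the neutrophil sum was 2080 to 3300, which overlapped that of PRR-/- samples. Their macrophage and monocyte sums were 7060 to 10300 and 13000 to 18300. Of 8 monocyte and 11 neutrophil genes tested, none was called by limma (1 and 2 at an unadjusted p under 0.05, 0 by the methods' t-test), with medians of 0.452 and 0.287. The part of such cells in the higher genes was not tested, and in a sorted bulk sample fewer cells of a type cannot be told apart from less RNA per cell. T cell sums were 540 to 587 in WT and 540 to 664 in PRR-/- samples.

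**Figure D5:**
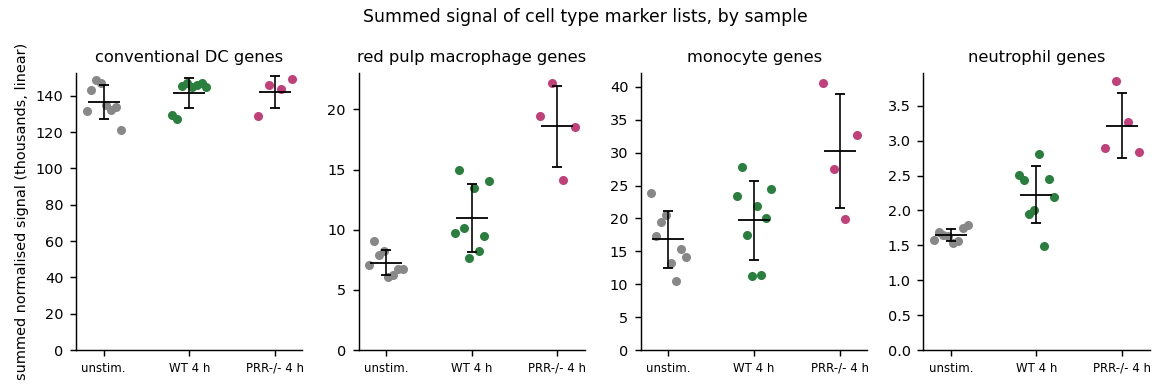
Summed normalised signal (y axis, linear scale from 0) of 4 marker lists in unstimulated, WT 4 h and PRR-/- 4 h samples; each point is a sample and bars are the mean and SD. Conventional DC sums overlap in the 3 groups, whereas macrophage, monocyte and neutrophil sums are higher in PRR-/- samples, with overlap for the macrophage and monocyte lists.

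The higher calls rested more on single samples than the lower ones. Without PRR-/- 1-2 the higher genes numbered 5, and without PRR-/- 3 they numbered 7, while the lower genes numbered 15 and 17. Of the 17 lower genes 14 kept the call without any 1 of the 12 samples in turn, and of the 12 higher genes 3 did (Ifi202b, Mmp13 and Vegfc). With only the PRR-/- and WT samples in the fit, 9 genes were lower and 4 higher, and Ifih1, Ifna4, Ifna6 and Ifna9 were among those that lost the call.

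The place of the differing genes in the genome was described last, on genes chosen after their values were seen. The 10 fallen IFN genes lie in the interferon cluster of chromosome 4. Of the 56 genes (0.583%) past an adjusted p of 0.05 alone, 12 lie on chromosome 4, 9 on chromosome 2 (which holds Ifih1), 8 on chromosome 8 (which holds Tlr3) and 8 on chromosome 1, which hold 597, 769, 489 and 506 of the genes tested. On chromosome 2, Rmdn3, Tmem87a and Lrrc57 are neighbours, 33 and 5 protein-coding genes apart in RefSeq order. They lie 575 to 613 genes from Ifih1, and in all 3 PRR-/- 4 lay with the WT samples, although Tmem87a differed in the opposite direction from the other two. On chromosome 8, Smim19 (-0.81) and Slc20a2 (-0.84) are adjacent genes, 125 and 124 genes before Tlr3. Fut10 (0.88) and Purg (-0.58) lie 62 and 58 genes before it. Vegfc (1.19), which was called, is the nearest, 31 genes after Tlr3. Zfp617 (-0.21) and Hmox1 (1.28, called) lie 206 and 234 genes after it. On chromosome 1, Ctse and Chil1 lie 40 genes apart. Rnpep (0.94), Nav1 (0.70) and Csrp1 (0.58), which differed in the opposite direction, follow Chil1 at steps of 21, 5 and 1 genes. Among the 25 protein-coding genes on each side of Ifih1, 18 were tested and none was called by limma, with differences from -0.69 to 0.57. The same counts held beside Tlr3, with differences from -0.55 to 0.61, and Vegfc lies just outside that stretch. Limma called 0.302% of all genes, so none called among 18 is near the share over all genes. The genes next to Ifih1 on each side, Fap and Gca, had the lowest values of its stretch. They were at -0.69 (adjusted p = 0.182, limma) and -0.65 (adjusted p = 0.213). Fap was called with another background model and with the authors' log2 table. Neither the marrow donors' flanking DNA nor a link between position and difference was tested.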

How the data were processed

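RNA of sorted spleen DCs had been hybridised to mouseRef-8 bead arrays. The authors deposited unnormalised signal intensity per probe with a detection p-value, exported from the scanner software, and a log2 table that the authors had floored at background, quantile normalised and centred on the median of all samples. The deposited intensities were used here. The deposited log2 table served as an alternative. Each array was floored at its lowest signal with a detection p under 0.05 (74.5 to 102 on the 13 arrays), taken to log2 and quantile normalised over 36 arrays, so a low level is compressed toward 6.49. Of 25697 probes, 14202 detected on at least 3 arrays were kept, and the brightest probe stood for each of 9606 genes. Of the probes, 23978 had 1 gene symbol and 1719 none. limma 3.58.1 in R 4.3.3 fitted 1 mean per group over 33 samples, with Benjamini-Hochberg adjustment over all genes. A call needed an adjusted p under 0.05 and a 2-fold difference. The number of arrays and the background floor limit the precision. The genes named were those called, the type I IFN genes, the deleted genes, members of each other list that passed (else its 3 brightest) and listed examples. Any other is named as such. Members and gene lists were chosen with earlier results of these data known. Promoter windows came from RefSeq (GRCm38.p6), in which 10 of 10 fallen IFN genes and 40 of 49 ISGs matched by symbol. Alternatives were another background model, scaling, floor, filter, probe rule, test, threshold, block and leaving out each sample. The 14 h samples entered only the shared estimate of spread.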

Additional observations from a re-analysis of the deposited data

Results flagged for a closer look

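In 245 groups of 4 or 8 samples (named genes in PRR-/- or WT DCs), the highest or lowest sample stood far from the rest in 15. Chance alone flags about 1 in 20 groups. In 7 of these the other samples were all at the floor, so that 1 sample just above background stood alone. These were Ifna2 at 6.58 in PRR-/- 4, Gab2 at 6.72 in WT 1, Ifne at 6.60 in WT 1, Ifnz at 6.72 in PRR-/- 3, Tlr3 at 6.59 in PRR-/- 5, Cd28 at 6.67 in WT 7 and Cd247 at 6.58 in PRR-/- 3. Ebf1 was 6.61 in WT 6, against 6.49 to 6.55 in the other WT samples.

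Chil1 was 11.53 in WT 5, above the 9.47 to 10.37 of the other WT samples and further from the PRR-/- samples. In PRR-/- 1-2, Tnfaip3 was 11.47 against 12.00 to 12.05 in the others, Herpud1 was 13.89 against 13.25 to 13.36, Hmgcs1 was 11.53 against 11.28 to 11.32 and Cd79b was 7.52 against 7.19 to 7.24. In WT 8, Usp18 was 13.96 against 14.38 to 14.76 and Hif1a was 8.70 against 9.20 to 9.65. The causes were not tested.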

How the results depend on the processing

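No named gene that was called changed direction under any of the 15 alternatives and 12 leave-one-out fits. Against 29 genes (17 lower, 12 higher), the background model neqc called 47 (24 higher, 23 lower), the fit on PRR-/- and WT samples only 13 (9 lower, 4 higher), and the methods' t-test 11 (8 lower, 3 higher), with 434 at an unadjusted p of 0.05 or less. An adjusted p with no fold limit gave 56 (32 higher), an adjusted p under 0.01 gave 5 higher, and the 3 sets as a block gave 19 higher. Leaving out each sample gave 20 to 35 genes, 15 to 18 lower and 5 to 17 higher. Gab2 lost its call in all 12 of these fits. Of the 29 genes, 12 kept the call in the fit on the 2 groups alone and 10 by the t-test, with Ifih1, Ifna4, Ifna6, Chil1 and Ifi202b among those lost in both. The cause was not tested. Those fits hold fewer samples and leave out groups that enter the shared spread of the full fit. In unstimulated DCs the SD was 0 for Ifih1 and Ifna4, 0.08 for Chil1 and 0.12 for Ifna6. For Ifi202b the SD was 0 in WT and IFNAR-/- DCs. By the t-test the adjusted p was 0.228 for Ifih1, 0.125 for Ifna4 and 0.229 for Ifi202b. With the replicate number as a block, 28 genes were called (18 lower, 10 higher), and Gab2, Itgad and Kcnip3 lost the call. The labels do not say that a number marks a shared host or day, so the numbers were not taken as pairs. The deviations of PRR-/- 1-2 correlated with those of WT 1 at 0.857 and of WT 2 at 0.921. For the same-numbered samples 3, 4 and 5 the correlations were 0.647, 0.622 and 0.0169, and PRR-/- 5 was most like WT 8. No limit for such a correlation was set. With 4 PRR-/- samples, and many IFN genes at the floor, the size of their fall is bounded by the background.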

Other observations

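Metabolic and housekeeping genes were not described above. Of 20 glycolysis genes none was called between PRR-/- and WT DCs by limma (1 at an unadjusted p under 0.05, 0 by the methods' t-test), and the list median was 0.03. Pfkp, a phosphofructokinase, had risen over unstimulated DCs by 2.33 in WT and 2.27 in PRR-/- DCs and differed by -0.06 between them (interval -0.51 to 0.39). Of 32 respiratory chain genes none was called (0 at an unadjusted p under 0.05, 0 by the t-test), with a median of -0.02. Limma called 0.302% of all genes, so a count of 0 in either list is near the share over all genes. Hif1a, the oxygen-sensing transcription factor, differed by 0.06 (interval -0.30 to 0.42).

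A number of the genes named above also varied among unstimulated samples, whose genotype the labels do not give. Hebp1 was 11.92, 11.16, 10.72, 11.82, 7.27, 7.04, 10.48 and 7.67 in unstimulated 1-2, 3, 4, 5, 6, 7, 8 and 9. In the same order, Gab2 was 7.97, 7.94, 8.30, 7.80, 6.49, 6.49, 7.48 and 6.49. Kcnip3 ran the other way, at 6.68, 6.98, 6.88, 6.70, 8.49, 8.66, 7.19 and 8.72. Klra17 was 11.73, 11.07, 11.85, 11.44, 8.38, 8.24, 10.81 and 8.33. Samples 6, 7 and 9 lay at one end of all 4 genes. Ctse was above 9 only in samples 6 and 7 (9.88 and 9.70), and at or under 6.82 in the others, sample 9 included. Ifi202b was above background in samples 1-2, 4 and 5, at 7.27, 6.91 and 7.58.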
